A study of Mus musculus with 4 samples.

Results

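The genes of the ATG8 family and of the start of autophagy were followed through 10 named genes: Gabarap, Gabarapl1, Gabarapl2, Map1lc3a and Map1lc3b, which encode the ubiquitin-like ATG8 proteins, and Ulk1, Becn1, Wipi1, Wipi2 and Nbr1. A probe was taken for a gene when its name in the scanner files was a RefSeq transcript of that gene, which gave 17 probes for 9 of the 10 genes, out of 41174 probes and 18217 named genes on the array. Gabarapl2 had no such probe and was not analysed here. Transcripts were measured in Hepa1c1c7 cells, an established hepatoma line of the mouse, on 4 arrays. The cells behind 2 of the arrays had received diethyl maleate (DEM) at 100 µM, an electrophile that reacts with glutathione and that the series title calls an activator of the transcription factor NRF2. The cells behind the other two had received the solvent DMSO, and each exposure lasted 6 hours. All 4 samples share 1 cell line with no genetic change named in the labels, and nothing in them says that replicates came from separate cultures, so the spread behind every p-value may be technical.

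Autophagy encloses cytoplasm in a membrane that grows into an autophagosome and fuses with lysosomes. The ULK1 kinase complex starts it, and the class III PI3-kinase complex built on Beclin 1 marks the growing membrane with a lipid that WIPI proteins read. WIPI2 recruits the enzymes that attach ATG8 proteins (the LC3 and GABARAP subfamilies) to the lipid phosphatidylethanolamine, and receptors such as NBR1 and p62 bind ATG8 proteins to bring cargo in. In liver cells p62 also binds KEAP1, the protein that holds NRF2 in check, which ties autophagy to the antioxidant response. Much of this control acts on proteins, and only transcript levels were measured here.

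The share of probes well above background was 50.4% to 52.6% per array, and saturation was flagged on 0 spots. All 4 arrays lay on 1 slide with 1 scan, so slide and scan offered no batch to compare. Values are the scanner's processed signal, an intensity with no absolute unit, and its log2 after subtraction of the array's own 75th percentile, called the log2 level below; levels of different probes are not comparable. The 15537 genes tested were the 9 genes above, 10944 other named genes and, for probes without a symbol, their names in the scanner files. A gene may thus stand under more than 1 name, and shares of all genes below include these unnamed entries. Limma called 111 higher and 79 lower in DEM at a Benjamini-Hochberg adjusted p under 0.05. Rises were 58.4% of the calls, against 71.2% after scaling arrays on their median and 34.6% after scaling on spike-in probes. All 5 NRF2 target genes checked were called higher, with log2 changes of 2.01 for Gclm, 2.30 for Srxn1, 2.35 for Nqo1, 4.55 for Hmox1 and 5.15 for Slc7a11. Of 13 hepatocyte markers 8 were tested and 0 called (without adjustment, 3 passed 0.05 upward and 0 downward); Alb and Afp were well above background on all 4 arrays, while Ttr, Apoa1 and Hnf4a were so on none. The macrophage markers Adgre1, Marco and Clec4f and the endothelial markers Pecam1, Cdh5, Kdr and Tek were well above background on no array, while Csf1r and Cd14 (macrophage) and Lyve1 and Stab2 (endothelial) were so on all 4. Limma called 0 of the 2 macrophage, 2 endothelial, 6 fibroblast and stellate and 4 cholangiocyte markers tested. At an unadjusted limma p under 0.05 none of these passed upward, where 9.02% of all genes did. Downward 1 macrophage marker (Cd14, log2 change -0.45), 0 endothelial and 1 fibroblast marker (Dcn, -0.26) passed, where 10.2% of all genes did. So did 1 cholangiocyte marker (Sox9, -0.69, limma adjusted p = 0.0782). Csf1r (macrophage, 0.42) and Pdgfrb (fibroblast, 0.27) changed the other way without passing, each with the DEM arrays wholly above the DMSO arrays. All 4 cholangiocyte markers had changes below 0, and their summed signal, as a multiple of the array's 75th percentile, was 168 and 178 in DMSO and 138 and 158 in DEM. Most of that sum was Krt7, which was not called (log2 change -0.21, limma adjusted p = 0.427). The summed signal of the fibroblast and stellate markers was 139 and 148 in DMSO and 119 and 135 in DEM. That of the macrophage markers was 5.26 to 5.80 and 4.68 to 6.02, and that of the endothelial markers 0.172 to 0.183 and 0.165 to 0.166. By the labels all arrays hold 1 cell line, so these markers were read as its transcripts and are no measure of other cell types. Their part in the results was not tested. RNA from fewer cells and less RNA per cell cannot be told apart in such samples.

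Among the 9 genes measured, 1 rose after DEM, 0 fell and 8 were not called. The gene that rose was Gabarapl1, whose protein belongs to the GABARAP subfamily of ATG8 and takes part in late steps of autophagosome formation. It was 1.84-fold higher in DEM (95% confidence interval 1.53 to 2.20). Over all genes tested, 0.714% were called higher and 0.508% lower. Without adjustment the count at p under 0.05 was also 1 upward and 0 downward, where 9.02% and 10.2% of all genes passed. It was 4 upward after normexp, where 1671 of 15537 genes passed upward, and 3 after median scaling, where 2195 did. With an intensity trend it was 3, plain or robust, where 1644 and 1633 of 15537 genes passed upward. With probes well above background on all 4 arrays it was 2, where 1417 of 14576 genes passed upward. The median log2 change of the 9 genes was 0.07, against -0.01 over all genes, and 7 of the 9 changes were above 0, against 48.8% of all genes. Both depend on single arrays and on the scaling. The median was 0.0033 without DMSO replicate 2 (-0.02 over all genes), 0.13 without DMSO replicate 1 (0.01) and 0.17 without DEM replicate 2 (-0.01). It was 0.21 after median scaling and -0.0057 after spike-in scaling, where the median over all genes moved with it, to 0.14 and -0.08. The genes above 0 numbered 5 without DMSO replicate 2 or DEM replicate 1 and 4 after spike-in scaling. They were also 5 when a gene's probes were averaged, and 6 after normexp or quantile normalization. On the log2 level, the DEM arrays lay wholly above the DMSO arrays for 5 of the 9 genes and wholly below for 2, where 24.9% and 25.6% of all genes did so. For Map1lc3a (above) and for Becn1 and Wipi2 (below) the margin was thin, and the groups overlapped on the processed signal. The separation of Gabarapl1, Gabarap, Ulk1 and Wipi1 held on that signal. All 17 probes were well above background on all 4 arrays, so no gene had only a bound.

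**Figure D1:**
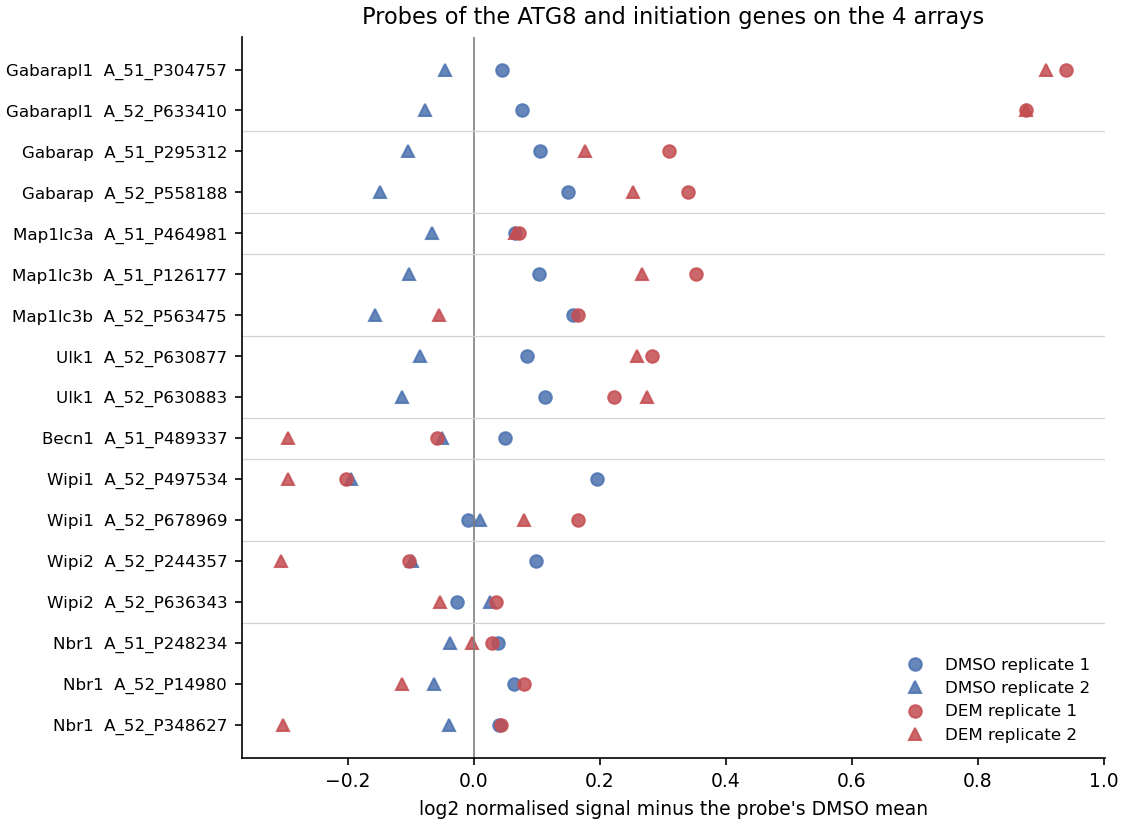
Log2 level of each of the 17 probes on each array, drawn as its distance from that probe's DMSO mean (x axis, log2); colours mark DMSO and DEM, circles replicate 1 and triangles replicate 2. The Gabarapl1 probes on the DEM arrays stand apart on the right, while for most other probes the spread between replicates is as wide as the distance between groups.

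Gabarapl1 had a processed signal of 33000 and 28600 on the DMSO arrays and of 59100 and 57000 on the DEM arrays with its brighter probe, A_52_P633410. Both DEM arrays were higher than both DMSO arrays, and the DEM arrays lay closer to each other than the DMSO arrays did. On the log2 level these were 5.95 and 5.80 in DMSO against 6.75 and 6.75 in DEM, a log2 change of 0.88 ± 0.10 (SE, n = 2 arrays per group; limma adjusted p = 0.0496 over all genes). The second probe, A_51_P304757, read 1280 and 1160 in DMSO and 2450 and 2310 in DEM, a log2 change of 0.92 ± 0.09. With every tested probe as its own test, both Gabarapl1 probes were called (limma adjusted p = 0.0498 and 0.0410), and they were the 2 calls among the 17 probes, where 0.61% of 21140 probes were called higher and 0.402% lower. Probes of 1 gene share their samples and are not replicates.

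The rise of Gabarapl1 kept its direction under all 16 processing alternatives, with log2 changes from 0.80 to 1.02. The value table, the other filters, testing each probe on its own, the eBayes trends and the replicate block left its log2 change at 0.88. Its direction was fixed there, and the value table, equal to the processed signals, also repeats the reported call. The rise had an adjusted p that sat at the threshold. It was called under 8 of the 16 and not called under the other eight, with limma adjusted p from 4.91e-04 to 0.255. Every setting that left out 1 array ended the call: the log2 change was 0.95 without DMSO replicate 1 (limma adjusted p = 0.224), 0.80 without DMSO replicate 2 (0.255), 0.88 without DEM replicate 1 (0.0983) and 0.88 without DEM replicate 2 (0.118). Quantile normalization gave 0.85 (0.0505), scaling on spike-in probes 0.80 (0.0837), testing dim probes too left 0.88 (0.225), and a block for the replicate number left 0.88 (0.0567).

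**Figure D2:**
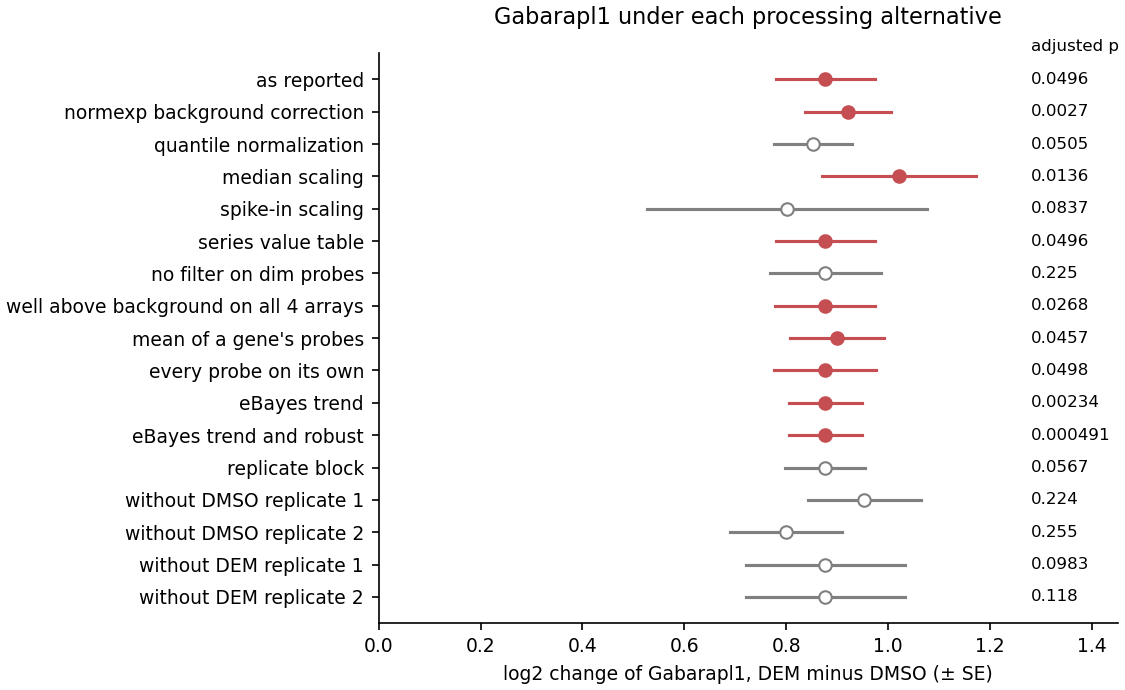
Log2 change of Gabarapl1 (x axis; bars are ± SE, n = 2 arrays per group unless 1 array is left out) under the reported setting and 16 alternatives (rows), with the limma adjusted p at the right; filled points passed 0.05. The change stays between 0.80 and 1.02 throughout, while the adjusted p crosses the threshold.

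Because Gabarapl1 and the other ATG8 genes were read on the same arrays, their log2 difference within an array is left as it is when 1 constant per array is subtracted, though quantile normalization can alter it. The difference between Gabarapl1 and Gabarap widened by 0.58 from DMSO to DEM, that from Map1lc3a by 0.81 and that from Map1lc3b by 0.82, each using the brightest probe. In each of these 3 comparisons both DEM arrays were above both DMSO arrays. An exact permutation test (two-sided) gave p = 0.333 for each, also after Benjamini-Hochberg adjustment over the 3, which is the smallest value that 2 arrays against 2 allow.

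The promoter windows of Gabarapl1, the gene that was called, of Gabarap, its close relative that was not, and of Map1lc3b, the gene with a match to the element NRF2 binds, are shown next. They come from RefSeq (GRCm38.p6, a build other than the mm9 of the array design), run from 250 bases before the annotated start to 30 after it, and are written 5′ to 3′ on the plus strand, with capitals marking the match. The Gabarapl1 window is chr6:129532942-129533221, that of Gabarap chr11:69991120-69991399 and that of Map1lc3b chr8:121590188-121590467.
Gabarapl1: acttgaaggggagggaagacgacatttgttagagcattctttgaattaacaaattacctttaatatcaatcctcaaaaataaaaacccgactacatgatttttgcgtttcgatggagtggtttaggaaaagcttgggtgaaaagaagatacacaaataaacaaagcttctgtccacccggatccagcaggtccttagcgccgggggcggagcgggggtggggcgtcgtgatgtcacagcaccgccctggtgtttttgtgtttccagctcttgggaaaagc
Gabarap: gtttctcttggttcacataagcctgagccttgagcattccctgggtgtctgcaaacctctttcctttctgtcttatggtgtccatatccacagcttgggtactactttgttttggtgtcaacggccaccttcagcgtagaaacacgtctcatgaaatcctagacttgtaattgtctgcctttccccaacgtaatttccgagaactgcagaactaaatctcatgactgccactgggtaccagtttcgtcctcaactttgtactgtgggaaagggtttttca
Map1lc3b: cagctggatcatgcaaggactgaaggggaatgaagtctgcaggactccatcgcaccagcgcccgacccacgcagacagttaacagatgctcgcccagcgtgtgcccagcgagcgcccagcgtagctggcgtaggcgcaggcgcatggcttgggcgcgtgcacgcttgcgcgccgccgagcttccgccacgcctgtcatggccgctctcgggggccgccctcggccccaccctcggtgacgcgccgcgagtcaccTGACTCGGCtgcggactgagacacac

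RefSeq windows were at hand for 8 of the 10 genes, Map1lc3a and Becn1 being the others. Each was searched on both strands for 4 motifs: TGACNNNGC, the core of the antioxidant response element; CACGTG, the E-box within the motif of the lysosomal regulator TFEB; GTAAACA, bound by FOXO factors; and TGATGNAA, part of the element bound by ATF4 with C/EBP partners. TGACNNNGC was found in 1 of the 8 genes, Map1lc3b, as TGACTCGGC beginning 4 bases after the start, and in 11.5% of all 32851 windows of the same length. The other three motifs were in 0 of the 8 genes and in 6.79%, 3.49% and 3.81% of all windows. In Gabarapl1 none of the 4 motifs occurred within this window, and no match overlapped another motif. The G and C content was 46.4% in the Gabarapl1 window and 45.7% in that of Gabarap, against 68.9% in that of Map1lc3b and a median of 52.5% over all windows. A match of letters does not show a bound site.

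Gabarap, the founding member of its subfamily, known also for binding GABA receptors, had log2 levels of 3.47 and 3.17 in DMSO and 3.66 and 3.57 in DEM with probe A_52_P558188. The DEM arrays were above the DMSO arrays, yet the DMSO arrays differed from each other by more than DEM replicate 2 differed from DMSO replicate 1. The log2 change was 0.30 ± 0.13 (95% confidence interval -0.06 to 0.66; limma adjusted p = 0.327), and ran from 0.15 without DMSO replicate 2 to 0.45 without DMSO replicate 1. Its second probe read 5540 and 4620 in DMSO and 6570 and 5780 in DEM and gave 0.24 ± 0.12.

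Map1lc3b, which encodes the LC3B protein used as the usual marker of autophagosomes, gave unlike values with its probes. Probe A_52_P563475 had log2 levels of 5.39 and 5.08 in DMSO and 5.40 and 5.18 in DEM, and the groups overlapped (log2 change 0.06 ± 0.15, limma adjusted p = 0.889). Probe A_51_P126177 had 4.65 and 4.45 in DMSO and 4.90 and 4.82 in DEM, with no overlap and a log2 change of 0.31 ± 0.11. That second value was not called over all probes (limma adjusted p = 0.257, unadjusted p = 0.0453). Map1lc3a, the related LC3A gene, had log2 levels of 0.89 and 0.76 in DMSO and 0.90 and 0.89 in DEM. Its groups were separated by a margin much smaller than the gap between the DMSO arrays (log2 change 0.07 ± 0.09, 95% confidence interval -0.18 to 0.32).

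Ulk1, the kinase that starts autophagy, had log2 levels of 3.96 and 3.79 in DMSO and 4.16 and 4.14 in DEM with probe A_52_P630877. Its second probe, A_52_P630883, had 0.83 and 0.60 in DMSO and 0.94 and 0.99 in DEM. Both probes placed the DEM arrays above the DMSO arrays, with log2 changes of 0.27 ± 0.10 and 0.25 ± 0.12. The gene was not called (limma adjusted p = 0.260), and its fold of 1.21 had a 95% confidence interval of 1.00 to 1.46.

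Becn1, which encodes Beclin 1 of the class III PI3-kinase complex, had log2 levels of 2.84 and 2.74 in DMSO and 2.73 and 2.50 in DEM. The DEM arrays were below the DMSO arrays, though DEM replicate 1 and DMSO replicate 2 were nearly equal. The log2 change was -0.18 ± 0.12 and was not called (limma adjusted p = 0.504, 95% confidence interval -0.50 to 0.14). Dropping DEM replicate 1 gave -0.29, dropping DEM replicate 2 gave -0.058, and median scaling gave -0.031.

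The WIPI genes encode proteins that bind the lipid made by that complex. Wipi1 gave opposite signs with its probes: A_52_P678969 had log2 levels of -0.14 and -0.12 in DMSO and 0.03 and -0.05 in DEM, and A_52_P497534 had -1.61 and -2.00 in DMSO and -2.01 and -2.10 in DEM. The log2 changes were 0.12 ± 0.09 and -0.25 ± 0.16, and neither was called. Wipi2, which recruits the ATG8 conjugation enzymes, had log2 levels of 2.48 and 2.28 in DMSO and 2.28 and 2.07 in DEM with probe A_52_P244357 (log2 change -0.20 ± 0.13, limma adjusted p = 0.463), which ran from -0.31 to -0.10 when each array was left out, the lowest without DEM replicate 1 and the highest without DEM replicate 2. DMSO replicate 2 (2.279) and DEM replicate 1 (2.275) were nearly equal with that probe. The second Wipi2 probe had 1.84 and 1.89 in DMSO and 1.90 and 1.81 in DEM, with overlapping groups and a log2 change of -0.01 ± 0.09.

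Nbr1, a receptor that carries ubiquitin-tagged cargo to ATG8 proteins, had overlapping groups with each of its 3 probes. The brightest, A_51_P248234, had log2 levels of 2.68 and 2.60 in DMSO and 2.67 and 2.64 in DEM, a log2 change of 0.01 ± 0.09 with a 95% confidence interval of -0.22 to 0.25. The other two probes gave log2 changes of -0.02 and -0.13.

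**Figure D3:**
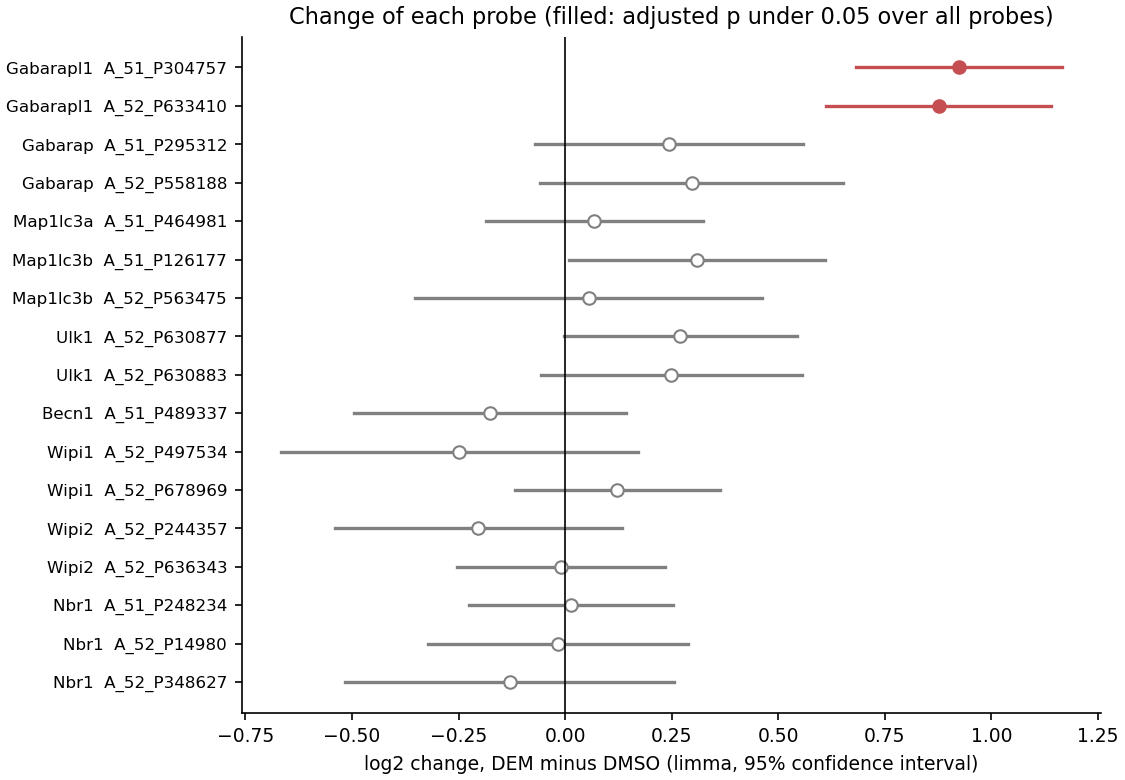
Log2 change from DMSO to DEM of each of the 17 probes (x axis) with its 95% confidence interval from limma (n = 2 arrays per group); filled points passed an adjusted p of 0.05 over all 21140 probes. Only the intervals of the Gabarapl1 probes and of Map1lc3b probe A_51_P126177 lie wholly above 0.

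Over the 17 probes, 9 had DEM arrays wholly above the DMSO arrays, 3 wholly below and 5 overlapping, where 24.4% and 25.5% of all probes tested were separated upward and downward. On the processed signal the 3 below (Becn1, Wipi1 probe A_52_P497534 and Wipi2 probe A_52_P244357) and the Map1lc3a probe overlapped between groups. Replicates of a group also differed in 1 direction for most of these probes. DMSO replicate 1 was above DMSO replicate 2 for 15 of the 17 (median difference 0.15 on the log2 level), against 57.7% of all probes tested, and DEM replicate 1 was above DEM replicate 2 for 15 of the 17 (median 0.09), against 50.4%. These differences between replicates are as large as many of the changes given above for genes that were not called, and their part in those values was not tested.

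**Figure D4:**
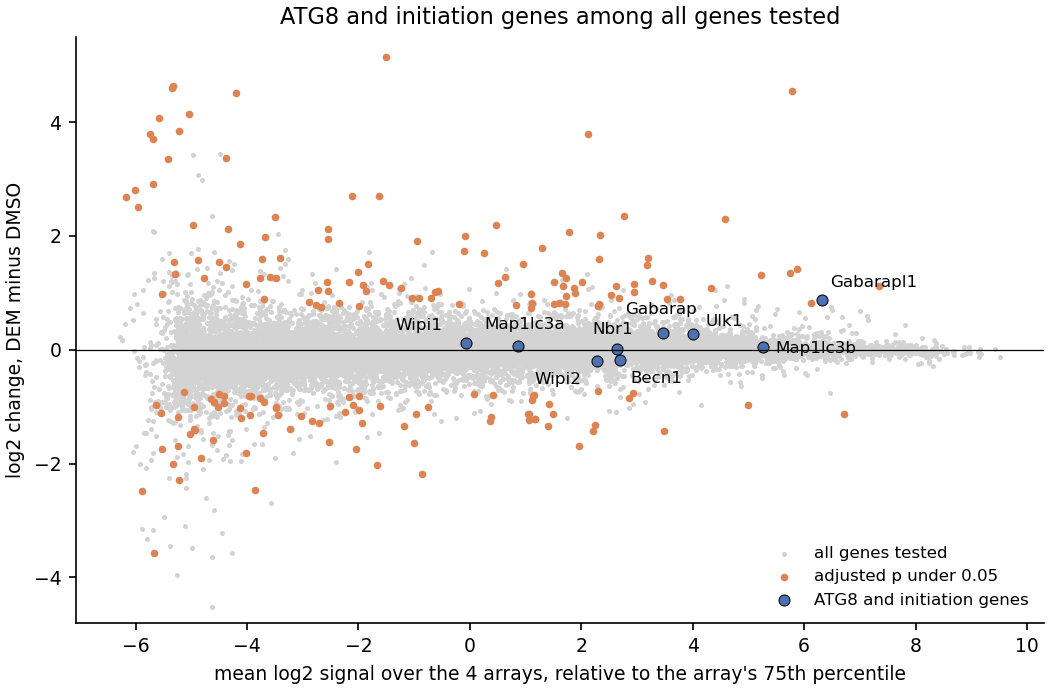
Log2 change from DMSO to DEM (y axis) against the mean log2 level over the 4 arrays (x axis) for all 15537 genes tested (grey), those with an adjusted p under 0.05 (orange) and the 9 ATG8 and initiation genes (blue, named). Gabarapl1 lies at 0.88, and the other eight lie between -0.20 and 0.30 inside the grey band.

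By Euclidean distance over the 4 arrays, after each gene was centred on its own mean, the genes nearest to Gabarapl1 among 10944 named genes were Zdhhc18 (distance 0.062), a protein palmitoyltransferase, Myo1a (0.073), an unconventional myosin, and Alas1 (0.077), the first enzyme of haem synthesis. Their log2 changes were 0.87, 0.82 and 0.81 (limma adjusted p = 0.0598, 0.0467 and 0.0499), so Zdhhc18 was not called. This likeness rests on 4 arrays in 2 groups.

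The rest of the autophagy machinery was read from 7 lists with 63 genes, of which 59 were tested. Limma called 2 of the 59 higher and 0 lower, where 0.714% and 0.508% of all genes were called. Without adjustment 11 passed 0.05 upward and 2 downward, where 9.02% and 10.2% of all genes did. The median log2 change was 0.06, against -0.01 over all genes. The 2 were Sqstm1, which encodes the receptor p62, and Sesn2, a sestrin that restrains the growth kinase mTORC1. Sqstm1 had log2 levels of 6.82 and 6.73 in DMSO and 7.81 and 7.98 in DEM, a 2.17-fold rise (log2 change 1.12 ± 0.10, limma adjusted p = 0.0410). Sesn2 had log2 levels of 1.11 and 1.13 in DMSO and 1.90 and 1.94 in DEM, a 1.74-fold rise (log2 change 0.80 ± 0.08, limma adjusted p = 0.0456). For both genes the DEM arrays were far above the DMSO arrays relative to the gaps within groups, and each was read by 1 tested probe. Each lost its call without any 1 of the 4 arrays: the limma adjusted p was 0.228, 0.249, 0.0538 and 0.0786 for Sqstm1, and 0.241, 0.255, 0.0983 and 0.123 for Sesn2, without DMSO replicate 1, DMSO replicate 2, DEM replicate 1 and DEM replicate 2 in turn. Testing dim probes too ended both calls (limma adjusted p = 0.211 and 0.215), as did the replicate block (0.0539 each), and Sesn2 was also not called after quantile normalization (0.0542) or spike-in scaling (0.152). Sesn2 held the element core TGACNNNGC in its promoter window, as TGACAGAGC beginning 36 bases before the start, and Sqstm1 held none of the 4 motifs there.

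In the ULK complex list 4 genes were tested and 0 called by limma (1 higher at an unadjusted p under 0.05); Rb1cc1, the scaffold FIP200, had the widest change, 0.34 ± 0.12 on the log2 scale. In the class III PI3-kinase list 0 of 7 were called (1 higher at an unadjusted p under 0.05); Rubcn, the inhibitor Rubicon, had 0.26 ± 0.09. In the list of ATG9, ATG2 and further genes of membrane supply 0 of 7 were called (1 higher at an unadjusted p under 0.05); Tmem41b, a lipid scramblase of the endoplasmic reticulum, had 0.47 ± 0.11. These 3 lists had medians of 0.15, 0.13 and 0.02.

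The conjugation genes act on the ATG8 proteins directly, cutting them and joining them to lipid. Of the 11 tested, limma called 0 (without adjustment, 1 passed 0.05 upward and 1 downward), and the median was 0.06. Atg16l2, a relative of the scaffold that places the conjugation enzymes, had log2 levels of 0.91 and 0.92 in DMSO and 0.59 and 0.50 in DEM (log2 change -0.37 ± 0.09, limma adjusted p = 0.139). Among 11 receptors 1 was called, Sqstm1, and the median was 0.16. Bnip3, a receptor of mitochondria named here after its value was seen, had a log2 change of 0.99 ± 0.11 just beyond the threshold (limma adjusted p = 0.0509). Of 5 fusion genes 0 were called by limma (0 at an unadjusted p under 0.05), with a median of 0.02 and Snap29, a SNARE protein, at 0.23 ± 0.09. Of 14 upstream regulators 1 was called, Sesn2, with a median of 0.06. Of these 14, 8 changes were above 0 and 6 below. Tfe3, a transcription factor for lysosome and autophagy genes also named after its value was seen, had 0.55 ± 0.09 (limma adjusted p = 0.0865). In the same list Ddit4 had a wider change, 0.69 ± 0.25 (limma adjusted p = 0.253), and Tfeb had -0.11 ± 0.13 with overlapping groups.

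**Figure D5:**
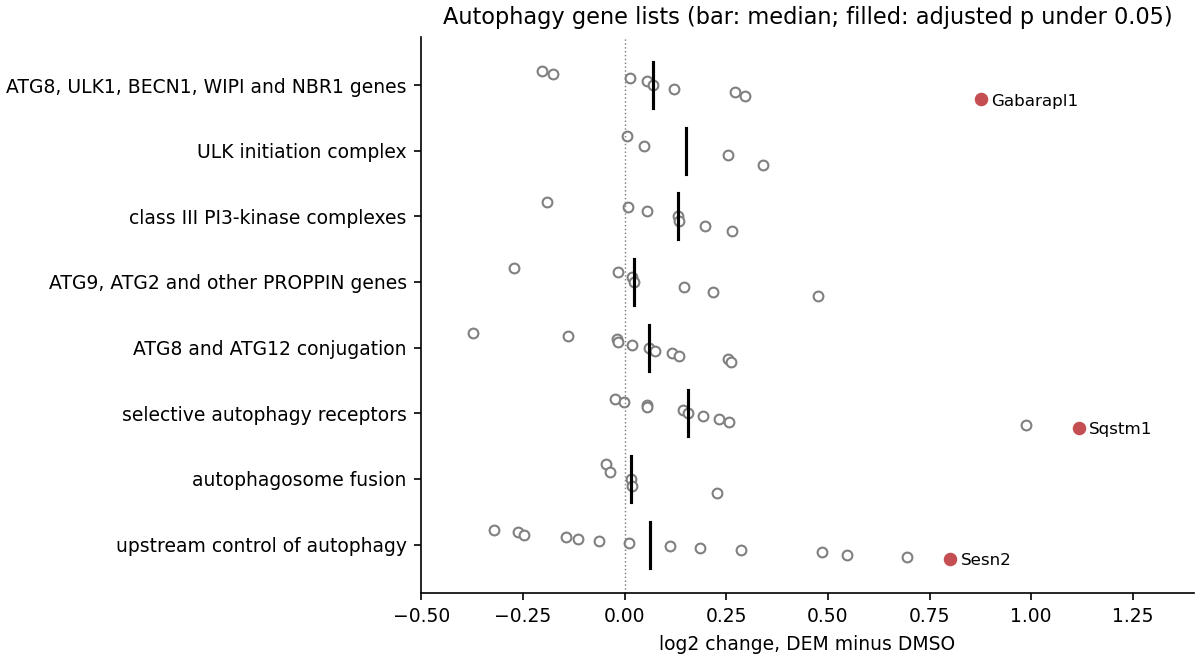
Log2 change from DMSO to DEM (x axis) of each tested gene in the 9 ATG8 and initiation genes and in 7 autophagy lists (rows); each point is 1 gene, the vertical bar is the list's median, and filled, named points passed an adjusted p of 0.05 over all genes. Gabarapl1, Sqstm1 and Sesn2 are the filled points, and the medians lie between 0.02 and 0.16.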

How the data were processed

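Amplified RNA (from 500 ng per sample) carried Cy3, per the labels' protocols; the extract protocol speaks of liver tissue although the other labels name the cell line. Per the file headers, the authors read the arrays, annotated on mm9, with Feature Extraction 10.7.3.1 (protocol GE1_107_Sep09). The deposited intensity values are background-subtracted processed signals with 0 or 1 flags in other columns; the deposited value table equals them at all 45018 spots of each array (column medians 13.8 to 16.2, so linear and uncentred).

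Here log2 of the processed signal was taken, the array's 75th percentile over 43379 non-control spots subtracted, flagged outlier spots dropped (22 of 41174 probes lost), and a probe tested if well above background on at least 2 of 4 arrays. Accessions were matched to RefSeq symbols (GRCm38.p6, for names): 26690 probes had 1 symbol and 14484 none. Probes with none were grouped under their name in the scanner files and counted as genes. The probe with the highest mean stood for a gene. Limma 3.58.1 (lmFit, eBayes; R 4.3.3) was fitted across all genes, and separately across all probes, two-sided, with Benjamini-Hochberg adjustment at 0.05, and was tested on simulated data. No depth applies to arrays; 2 arrays per group limit the precision. The named genes are the 10 members, the genes called in each list or else the one with the widest change, the 5 NRF2 targets and the 3 genes nearest to Gabarapl1. Markers come from the lists of cell types, and those given values, Bnip3, Tfe3, Ddit4 and Tfeb were named after their values were seen. The members and lists were chosen with earlier results of these data known. Alternatives were normexp (offset 50, on median spot signals), quantile, median and spike-in scaling, the value table, other filters, other probe rules, eBayes with a trend, the replicate block and leaving out each array.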

Additional observations from a re-analysis of the deposited data

How the results depend on the processing

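Of the 10 genes, 1 was called higher and 0 lower by limma, and 0 were called lower under each of the 16 alternatives. The count called higher was 0 under quantile normalization, spike-in scaling, no filter on dim probes and the replicate block, and 0 to 0 when each array was left out. The 2 probe calls became 1 under quantile normalization and spike-in scaling, 0 with no filter and with the replicate block, and 0 to 0 when each array was left out. Over all genes, 111 were higher and 79 lower as reported, 437 and 370 after normexp, 60 and 33 after quantile normalization, 404 and 163 after median scaling (the median over all genes then being 0.14), and 198 and 374 after spike-in scaling. They were 230 and 196 with probes well above background on all 4 arrays, 415 and 311 with an intensity trend, and 492 and 390 with a robust trend. With no filter 0 and 0 genes were called (limma; at an unadjusted p under 0.05, 1246 higher and 1919 lower), and leaving out each array gave 0 to 69 higher and 0 to 52 lower, the zeros being without either DMSO array (983 and 1130, then 844 and 1171, at an unadjusted p under 0.05).

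Changes near 0 turned sign. Nbr1 was -0.090 after normexp, -0.021 after quantile normalization, -0.061 after spike-in scaling and -0.044 as the mean of its probes, and ran from -0.024 (without DMSO replicate 2) to 0.051 (without DMSO replicate 1) when each array was left out, being -0.0029 without DEM replicate 1. Map1lc3b was -0.019 after spike-in scaling and ran from -0.10 (without DMSO replicate 2) to 0.21 (without DMSO replicate 1), being -0.056 without DEM replicate 1. Map1lc3a was -0.0057 after spike-in scaling, and Wipi1 was -0.063 as the mean of its probes. Without a change of sign, median scaling took Becn1, Wipi2, Ulk1, Wipi1, Gabarap and Map1lc3a to -0.031, -0.059, 0.42, 0.27, 0.44 and 0.21. Median and spike-in scaling each subtract a different constant from an array, so each moved the log2 change of every gene by the same amount. The turns of sign after spike-in scaling follow from that common shift and are not specific to these genes. The cause of the other turns of sign was not tested.

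The replicate block left the log2 change of Gabarapl1 at 0.88 (limma adjusted p = 0.0567) and called 74 genes higher and 69 lower. Without adjustment, 3 of the 9 genes then passed 0.05 upward and 1 downward, where 1961 and 2340 of all 15537 genes did. Same-numbered arrays deviated together with r = 0.14 across genes, and with 2 pairs and no label tying the numbers to a shared culture or day, pairing was not assumed.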

Other observations

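Genes of the machinery named above by their brightest probe were often read by others that gave smaller or opposite values. For Rb1cc1, 5 probes gave log2 changes of 0.34, 0.32, 0.28, 0.02 and -0.10. For Rubcn the second probe gave -0.19 against 0.26, and for Snap29 the other two gave 0.05 and -0.07 against 0.23. The 3 probes of Tmem41b gave 0.47, 0.38 and 0.30, and those of Tfe3 gave 0.55, 0.45 and 0.22, each with the DEM arrays wholly above the DMSO arrays. None of these probes was called by limma over all probes.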
